A study of Mus musculus with 12 samples.

Results

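Wildtype bone marrow-derived macrophages (BMDMs) polarized toward the M1 state were compared with those polarized toward the M2 state. The 6 libraries form 2 groups of 3, chosen by their titles out of 12 libraries in the series, and 10132 of 23863 genes, those whose mean reached 1 FPKM across them, were tested. FPKM counts the fragments of a transcript relative to its length and to the mapped fragments of the library, so it is a level per length. Bone marrow came from wildtype C57BL/6 mice of 6 to 8 weeks and was grown for 7 days with 15% medium conditioned by L929 cells, a source of M-CSF, before the cells were replated overnight. The M1 group then received 100 ng/ml LPS and interferon gamma for 24 h, and the M2 group 20 ng/ml IL-4 and 20 ng/ml IL-13 for 24 h. For interferon gamma one label gives 50 ng/ml and another 10 ng/ml. No group without cytokine was compared, so a gene higher in M1 may equally be described as lower in M2. In each title a name with a number (Wt2260, Wt2261 or Wt2262) is shared by 1 M1 and 1 M2 library. The labels do not say what it stands for or that the libraries of a group came from separate animals, so the p-values may measure only technical spread.

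LPS is sensed by TLR4 with its partners MD-2 and CD14, and interferon gamma by a receptor that acts through JAK kinases. Together they turn on NF-kB, interferon regulatory factors and the genes of microbial killing, and macrophages in this state are known for nitric oxide, inflammatory cytokines and a heavy use of glucose. IL-4 and IL-13 bind receptors that share the IL-4 receptor alpha chain and act through STAT6, and macrophages in that state are known for mannose receptor, arginase, chitinase-like proteins and the use of fatty acids.

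The titles and the treatment field of the labels disagree on the state of 4 of these 6 libraries, those named Wt2261 and Wt2262. Levels were therefore read in every library first. Nos2, the inducible nitric oxide synthase, was at 1419, 1630 and 1379 FPKM in the libraries titled M1 with the names Wt2260, Wt2261 and Wt2262, and at 0.986, 1.38 and 0.802 FPKM in those titled M2. The mannose receptor gene Mrc1 was at 0.274, 0.403 and 0.314 FPKM in M1 and at 245, 241 and 238 FPKM in M2. Both genes separate the libraries as the titles do, and all values below are given in the order Wt2260, Wt2261, Wt2262. In the pair named Wt2260, the only one where both labels agree, 7825 of the 7847 genes called had the sign of the whole comparison (99.72%). These 2 libraries were in the fit that made the calls, so that share is a description and no separate check of the titles. Grouped by the treatment field, 0 of 10132 genes were called with limma, with 55 at an unadjusted p under 0.05.

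Libraries of a state were alike. The lowest correlation of log2(FPKM + 1) within a state was 0.988 and the highest between states 0.848, and the first principal component, which separated the states, held 92.8% of the variance. Between 14366 and 14603 genes were above 0 in a library. The 10 most abundant genes took 20 to 21.7% of the summed FPKM in M1 and 15.8 to 16.4% in M2. These sums include the ferritin gene Fth1, at 18640 to 20500 FPKM in M2 but listed at 0 in M1. The shares of the states are therefore not on the same basis. No read counts were used, so the depth is unknown.

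Of the 10132 genes tested, 7847 passed the threshold of an adjusted p under 0.05 (77.4%). Of all tested genes, 26% were higher in M1 (2637 genes) and 51.4% lower (5210 genes). A difference of at least 1 on the log2 scale was found for 842 genes higher in M1 (8.31% of those tested) and 1291 lower (12.7%). The 3 M1 values and the 3 M2 values did not overlap for 80.7% of genes. The median difference over all genes was -0.19, and it is the level against which lists are set below. Median-of-ratios scaling, which moves that median to about 0, gave 50.0% of calls higher in M1, and quantile normalization gave 47.8%, against 33.6% as deposited. In bulk libraries, fewer cells of a type and less RNA per cell cannot be told apart, which holds for every difference below. The largest differences were more often higher in M1, with 130 genes higher and 112 lower by at least 3, and 26 higher and 13 lower by at least 5.

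**Figure D1:**
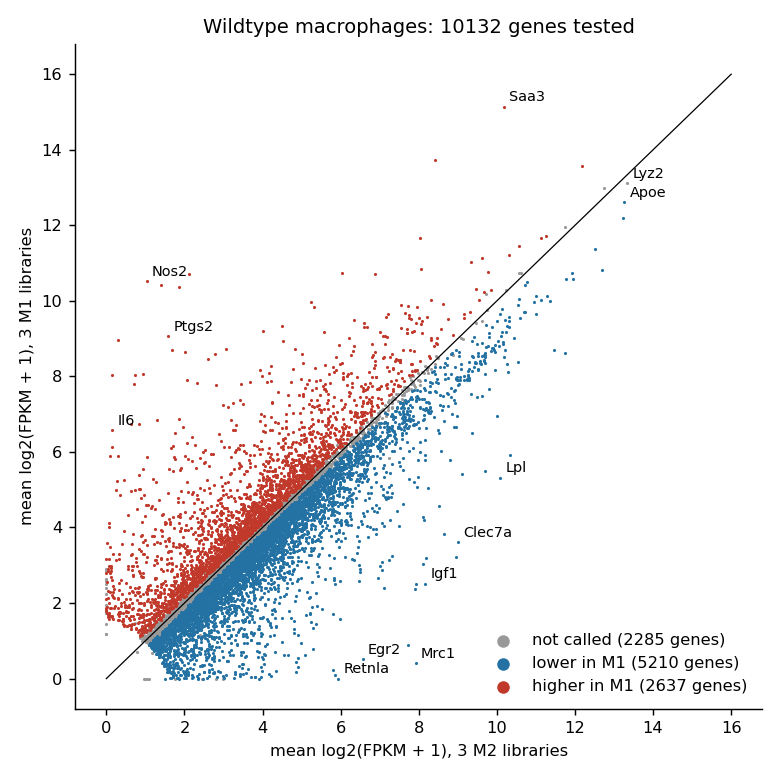
Each point is 1 of 10132 genes, placed by its mean log2(FPKM + 1) over 3 M2 libraries (horizontal axis) and 3 M1 libraries (vertical axis), with the line of equal level; red marks the 2637 genes higher in M1, blue the 5210 lower and grey those not called. Saa3 and Nos2 lie far above the line and Mrc1, Egr2 and Lpl far below it.

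The strongest expression in M1 was of a secreted acute phase protein and a chemokine. Saa3, serum amyloid A3, was at 40090, 32750 and 35950 FPKM in M1 against 1196, 958 and 1350 FPKM in M2, and was the most abundant gene of M1. Ccl5, a chemokine for T cells and monocytes, was at 15130, 12340 and 13720 FPKM in M1 and 344, 272 and 422 FPKM in M2. In M2 the most abundant genes with an estimate in both states were Lyz2 (lysozyme), Apoe (apolipoprotein E) and Ftl1 (ferritin light chain). Lyz2 was high in both states, at 9415, 8954 and 8376 FPKM in M1 and 10060, 10320 and 10520 FPKM in M2, and the interval of its difference, -0.45 to 0.03, includes 0 (adjusted p = 0.10, limma). Fth1, the ferritin heavy chain, was listed at 0 in the 3 M1 libraries and at 18640, 20500 and 20420 FPKM in M2. That 0 was read as a missing estimate and Fth1 was left out of the tests.

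Among the 15 largest differences in each direction, those higher in M1 were Nos2, Lcn2, U90926, Il1b, Cxcl10, Cxcl9, Ptgs2, Gbp4, Upp1, Il1a, Gbp5, Fpr2, Il6, Cd38 and Clic5. Lcn2, lipocalin 2, which binds bacterial siderophores, was at 1404, 1341 and 1395 FPKM in M1 and 1.88, 2.14 and 1.00 FPKM in M2 (log2 difference 9.04 ± 0.15 SE, adjusted p = 8.4e-09). Upp1, uridine phosphorylase, was at 260, 268 and 266 FPKM in M1 and 0.832, 0.876 and 1.04 FPKM in M2 (7.12 ± 0.05, adjusted p = 4.9e-10). Cd38, an ectoenzyme that breaks down NAD, was at 110.0, 116 and 92.3 FPKM in M1 and 0.590, 0.511 and 0.548 FPKM in M2 (6.10 ± 0.08). In each of these genes every M1 value was far above every M2 value.

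Lower in M1 were Mrc1, Atp6v0d2, Egr2, Retnla, Ptgs1, S100a4, Igf1, Matk, Crip1, Itgax, Clec7a, Fcrls, Mmp12, Atp6v0c-ps2 and Lpl. S100a4, a calcium-binding protein of motile cells, was at 7.79, 9.58 and 7.60 FPKM in M1 and 516, 446 and 520 FPKM in M2 (-5.73 ± 0.10, adjusted p = 8.4e-09). Crip1, a small LIM domain protein, was at 5.48, 4.12 and 3.23 FPKM in M1 and 240.1, 232 and 239.7 FPKM in M2 (-5.52 ± 0.14). Fcrls, an Fc receptor-like protein, was at 7.96, 5.91 and 7.99 FPKM in M1 and 276, 235 and 325 FPKM in M2 (-5.07 ± 0.14). Genes were chosen for both sets among those without overlap between the groups, as 80.7% of genes tested were. Atp6v0c-ps2 is annotated by its name as a pseudogene and may share reads with its parent gene, and its M1 values of 20.9, 19.8 and 5.47 FPKM spread more than those of the other genes.

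**Figure D2:**
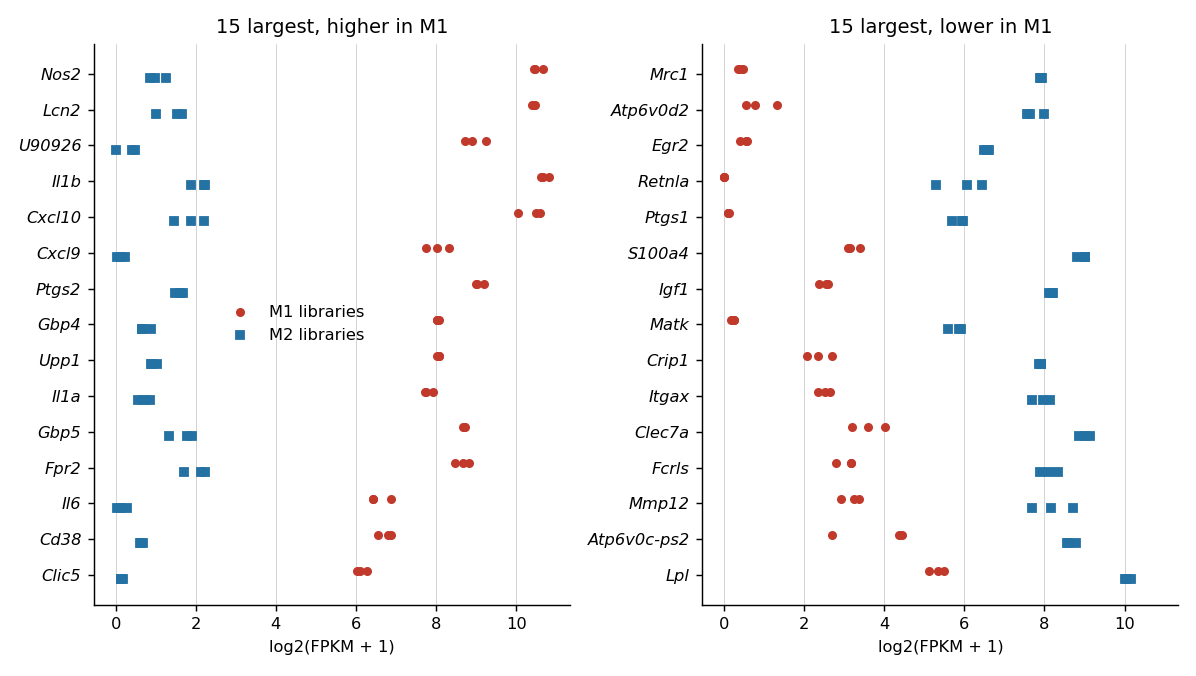
Levels, as log2(FPKM + 1), of the 15 genes with the largest difference higher in M1 (left) and lower in M1 (right) in each of 3 M1 libraries (red circles) and 3 M2 libraries (blue squares). Genes were picked among those whose groups do not overlap; Nos2 has the widest gap, 9.50, and Mrc1 the widest in the other direction, -7.51.

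The sequence upstream of a few genes named in this report is printed below, with letters that the transcription factors of both stimuli are known to bind. Only windows that hold a match were shown, so their matches are an illustration. Clec7a has 2 windows, of which a matching one is shown. The windows below end at the base before the RefSeq start (GRCm38.p6, given in the direction of the gene), while the authors aligned to mm9. Cxcl10 (chr5:92348890-92349139, minus strand) and Gbp5 (chr3:142496684-142496933, plus strand) stand for the interferon-induced genes, Cxcl2 (chr5:90903649-90903898, plus strand) for an NF-kB gene, and Retnla (chr16:48842359-48842608, plus strand), Clec7a (chr6:129472780-129473029, minus strand) and Itgax (chr7:128129300-128129549, plus strand) for genes lower in M1. Capitals mark matches to an interferon-stimulated response element (ISRE, GAAANNGAAA), a gamma-activated site (GAS, TTCNNNGAA) and a kappa B site (GGGNNTTNCC) in the first 3 windows, and to the wider-spaced STAT6 site (TTCNNNNGAA) in the last 3.
Cxcl10: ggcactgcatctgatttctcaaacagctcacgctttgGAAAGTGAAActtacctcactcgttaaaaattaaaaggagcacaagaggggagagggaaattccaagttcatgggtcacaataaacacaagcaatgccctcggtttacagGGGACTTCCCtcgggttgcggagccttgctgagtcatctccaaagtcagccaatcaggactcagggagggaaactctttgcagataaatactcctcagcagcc
Gbp5: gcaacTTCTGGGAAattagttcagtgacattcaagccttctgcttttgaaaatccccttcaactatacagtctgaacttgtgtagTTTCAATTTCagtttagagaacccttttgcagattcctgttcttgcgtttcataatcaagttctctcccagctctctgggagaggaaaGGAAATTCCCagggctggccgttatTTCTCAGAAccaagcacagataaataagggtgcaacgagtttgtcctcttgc
Cxcl2: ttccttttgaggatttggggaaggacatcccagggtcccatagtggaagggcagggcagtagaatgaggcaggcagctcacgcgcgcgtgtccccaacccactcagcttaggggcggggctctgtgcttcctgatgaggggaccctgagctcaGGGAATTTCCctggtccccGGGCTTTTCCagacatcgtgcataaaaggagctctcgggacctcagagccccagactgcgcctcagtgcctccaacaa
Retnla: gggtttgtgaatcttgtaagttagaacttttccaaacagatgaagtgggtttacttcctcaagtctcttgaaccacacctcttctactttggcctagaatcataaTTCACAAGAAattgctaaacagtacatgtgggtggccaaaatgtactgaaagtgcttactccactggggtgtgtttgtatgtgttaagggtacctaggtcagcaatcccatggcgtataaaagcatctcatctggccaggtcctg
Clec7a: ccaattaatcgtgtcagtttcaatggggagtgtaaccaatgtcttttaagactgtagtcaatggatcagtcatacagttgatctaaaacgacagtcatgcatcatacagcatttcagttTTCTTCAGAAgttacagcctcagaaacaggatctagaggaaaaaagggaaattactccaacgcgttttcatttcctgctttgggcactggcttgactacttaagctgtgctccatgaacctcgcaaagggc
Itgax: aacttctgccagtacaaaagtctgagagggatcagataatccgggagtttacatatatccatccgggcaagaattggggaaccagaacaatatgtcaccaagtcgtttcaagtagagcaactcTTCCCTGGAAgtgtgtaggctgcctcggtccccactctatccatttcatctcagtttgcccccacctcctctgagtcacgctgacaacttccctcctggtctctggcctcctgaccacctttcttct
In Cxcl10 the ISRE match GAAAGTGAAA begins 213 bases before the start and the kappa B match GGGACTTCCC 103 bases before it. In Gbp5 the ISRE reads TTTCAATTTC in the direction of the gene, and TTCTGGGAA, GGAAATTCCC and TTCTCAGAA are 2 GAS matches around a kappa B match. Cxcl2 has 2 kappa B matches 97 and 78 bases before the start. The STAT6 site match begins 145 bases before the start in Retnla, 131 in Clec7a and 127 in Itgax.

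Matches were counted on both strands in windows from 250 bases before to 50 after each RefSeq start, counting a gene if any of its windows matched. Of the 130 genes higher in M1 by at least 3 on the log2 scale, 91 had a window, and of the 112 lower by at least 3, 87 had one. The ISRE was found in 17.6% of the genes higher in M1, 4.6% of those lower and 3.99% of 27025 genes with a window. The kappa B site was found in 20.9%, 6.9% and 5.48%, the GAS in 13.2%, 5.75% and 9.55%, and the STAT6 site in 8.79%, 14.9% and 8.01%. Among the 7736 tested genes with a window the shares were 4.05% for the ISRE, 6.9% for the kappa B site, 8.34% for the GAS and 6.48% for the STAT6 site, so the genes lower in M1 held the kappa B site at the share of all tested genes. The GAS and the STAT6 site differ by 1 letter of spacing and were searched separately. Among 12 interferon-inducible GTPase genes with a window, 10 held an ISRE (83.3%). Among 31 NF-kB feedback genes, 10 held a kappa B site (32.3%), and among 20 alternative activation genes, 6 held a STAT6 site (30%) and none held an ISRE or a kappa B site. These shares describe letters in a short window and not binding.

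Genes that carry the LPS and interferon gamma signals were mostly higher in M1, with 12 of 19 higher and 5 lower and a median difference of 0.55. Cd14, the co-receptor of LPS, was at 710, 835 and 627 FPKM in M1 and 82.1, 66.2 and 95.4 FPKM in M2 (3.14 ± 0.15). Irak3, an inhibitor of signalling from Toll-like receptors, was at 92.4, 97.5 and 95.3 FPKM in M1 and 9.27, 8.28 and 9.06 FPKM in M2 (3.28 ± 0.05). The receptors themselves went the other way. Ifngr1, the ligand-binding chain of the interferon gamma receptor, was at 28.0, 24.4 and 26.7 FPKM in M1 and 88.8, 76.5 and 82.6 FPKM in M2 (-1.61 ± 0.07), and Tlr4 was at 14.1, 15.5 and 14.6 FPKM in M1 and 24.1, 21.3 and 24.1 FPKM in M2 (-0.62 ± 0.06). The kinase gene Jak2 was higher in M1 by 1.44 ± 0.05, and the adaptor Myd88 by 1.22 ± 0.08. Jak1, shared by interferon and IL-4 receptors, had a difference of -0.02 with an interval of -0.15 to 0.10, and was called higher in M1, of the alternatives run, only under median-of-ratios scaling (0.19).

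The receptors for IL-4 and IL-13 were not higher in the cells that received those cytokines. Il4ra was at 65.0, 66.8 and 71.2 FPKM in M1 and 17.5, 15.3 and 18.1 FPKM in M2 (1.94 ± 0.07), and Il13ra1 at 10.7, 11.2 and 9.50 FPKM in M1 and 2.98, 3.62 and 3.03 FPKM in M2 (1.44 ± 0.08). The chains Il4ra and Il13ra1 therefore stood higher in M1 in every library. Il2rg, another receptor chain of this list, was among its 3 smallest differences and was not called. Stat6 was at 60.3, 60.3 and 64.5 FPKM in M1 and 62.0, 56.9 and 62.7 FPKM in M2, with an interval of -0.11 to 0.16 for the difference (adjusted p = 0.68). Among feedback inhibitors of cytokine receptors, Socs3 (5.83 ± 0.07) and Socs1 (2.30 ± 0.09) were higher in M1, while Socs2 (-2.59 ± 0.10) and Cish (-2.43 ± 0.08), known as targets of STAT5 and STAT6, were lower. Of the 12 genes of this list tested, 7 were higher in M1 and 3 lower, with a median of 0.44.

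Transcription factors divided evenly, with 20 of 42 higher in M1 and 20 lower, 47.6% each. Of all genes tested 26% were higher and 51.4% lower. The list median was -0.11, which is 0.10 under median-of-ratios scaling. Higher in M1 were Batf2 (3.91 ± 0.11), Irf1 (2.64 ± 0.08), Batf (2.27 ± 0.09), Stat3 (2.03 ± 0.07) and Hif1a, the oxygen-regulated factor that drives glycolytic genes, which was at 73.6, 85.7 and 77.2 FPKM in M1 and 22.5, 21.6 and 21.8 FPKM in M2 (1.80 ± 0.06). Egr2 was the transcription factor with the largest difference in the list, at 0.497, 0.477 and 0.315 FPKM in M1 and 97.3, 93.8 and 89.1 FPKM in M2 (-6.05 ± 0.07, adjusted p = 2.2e-09). Pparg, the lipid-sensing nuclear receptor, was at 0.397, 0.458 and 0.482 FPKM in M1 and 27.5, 29.1 and 29.8 FPKM in M2 (-4.37 ± 0.05). Cebpa (-4.02), Myc (-3.92), Batf3 (-3.91) and Irf4 (-3.64) were lower in M1, each with no overlap between the groups. Myc was at 0.396, 0.635 and 0.603 FPKM in M1 and 23.6, 22.4 and 20.9 FPKM in M2. The NF-kB subunits differed little, with Nfkb2 higher by 0.95, Rela by 0.33, Nfkb1 by 0.29 and Relb by 0.26, and Rel lower (-0.31). Among factors of macrophage identity, Maf was higher in M1 (1.10 ± 0.13), and Spi1, which encodes PU.1, had an interval of -0.19 to 0.18 and was called higher, of the alternatives run, only under median-of-ratios scaling (0.21).

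Inflammatory cytokines were higher in M1 for 19 of 21 genes tested and lower for 2, Csf1 and Osm, with a median of 2.61. Il1b was at 1789, 1635 and 1576 FPKM in M1 and 3.67, 2.70 and 3.64 FPKM in M2 (8.59 ± 0.10, adjusted p = 2.4e-09). Il6 was at 85.3, 117 and 84.3 FPKM in M1 and 0.0302, 0.214 and 0.0887 FPKM in M2 (6.43 ± 0.13), and Tnf at 290.0, 298 and 269 FPKM in M1 and 13.9, 15.0 and 14.3 FPKM in M2 (4.22 ± 0.06). Il12b and Il12a, the chains of IL-12, were higher by 5.79 ± 0.14 and 2.80 ± 0.09, and the IL-12 family chains Il27 and Ebi3, which pair as IL-27, by 3.89 ± 0.09 and 1.60 ± 0.06. Antagonists moved in the same direction. Il1rn, the receptor antagonist of IL-1, was at 215, 225 and 249 FPKM in M1 and 11.4, 11.5 and 12.8 FPKM in M2 (4.16 ± 0.07), and Il10, an anti-inflammatory cytokine also counted among the alternative effectors, at 7.56, 7.66 and 10.3 FPKM in M1 and 1.34, 1.06 and 2.09 FPKM in M2 (1.94 ± 0.17). Csf1, which encodes M-CSF, was at 3.32, 3.07 and 3.74 FPKM in M1 and 12.2, 11.9 and 13.8 FPKM in M2 (-1.64 ± 0.08).

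The chemokines fell into a set high in M1 and a set high in M2. Of 19 tested, 13 were higher in M1 and 5 lower, with a median of 2.55. The ligands of CXCR3, which draw activated T cells, led the first set. Cxcl10 was at 1440, 1052 and 1555 FPKM in M1 and 1.76, 2.68 and 3.62 FPKM in M2 (8.53 ± 0.21), Cxcl9 at 258, 318 and 214 FPKM in M1 and 0.10, 0.183 and 0.0293 FPKM in M2 (7.89 ± 0.13), and Cxcl11 was higher by 5.61 ± 0.30. The neutrophil chemokines Cxcl3, Cxcl2 and Cxcl1 were higher by 4.13, 3.60 and 3.17, and the monocyte chemokine Ccl2 by 2.72 ± 0.18. Lower in M1 were Ccl6 (-4.40 ± 0.10), Pf4 (-3.11 ± 0.28), Ccl9 (-2.64 ± 0.13), Ccl22 (-1.77 ± 0.20) and Ccl17. Ccl9 was at 42.3, 31.8 and 44.8 FPKM in M1 and 264, 229 and 256 FPKM in M2. Ccl17, a ligand of CCR4, was listed at 0 in the 3 M1 libraries and at 4.39, 5.82 and 3.61 FPKM in M2. Of the receptors, Fpr2 (6.64 ± 0.14) and Fpr1 (5.81 ± 0.08), which sense bacterial formyl peptides, and Ccr7 (3.24 ± 0.11) were higher in M1, and Ccr3 (-2.07), Ccr2 (-2.05) and Cxcr4 (-2.04) were lower.

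Genes induced by interferon were higher in M1 as whole groups. All 20 interferon-inducible GTPases tested were higher in M1, by at least 1 on the log2 scale, with a median of 3.93, and 31 of 32 antiviral genes were higher with a median of 1.64. The GTPases attack the vacuoles of intracellular microbes. Gbp5 was at 408, 421 and 414 FPKM in M1 and 2.45, 1.53 and 2.73 FPKM in M2 (7.02 ± 0.13), and Gbp2 at 1048, 981 and 994 FPKM in M1 and 39.2, 34.9 and 37.3 FPKM in M2 (4.72 ± 0.06). The Gbp and Irg genes, Tgtp2 and the Oas1 genes have near-identical copies, so reads can be split between them and single members are uncertain. Rsad2, which encodes viperin, was at 330, 233 and 384 FPKM in M1 and 17.7, 10.7 and 28.8 FPKM in M2 (4.05 ± 0.33), and Isg15 at 750, 565 and 730 FPKM in M1 and 95.1, 62.2 and 146 FPKM in M2 (2.81 ± 0.28). Bst2, tetherin, was the antiviral gene not called, at 1245, 993 and 1237 FPKM in M1 and 801, 639 and 1145 FPKM in M2, with overlapping groups (0.46 ± 0.21, adjusted p = 0.074). It was called higher under median-of-ratios scaling, quantile normalization, the fit of all 12 libraries and the block by title number (adjusted p between 0.015 and 0.029), and without the M2 library Wt2262 (0.0052). Antiviral transcripts were thus well above 0 in M2 too, with a summed level of 2777, 1935 and 3916 FPKM against 8526, 7171 and 8801 FPKM in M1.

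The antiviral genes also varied together between libraries of 1 state. In both states the library named Wt2261 had the lowest value and that named Wt2262 the highest for 22 of 32 antiviral genes (68.8%), against 6.52% of all genes tested, a pattern chosen after the values were seen. Ifit3 was at 196, 144 and 221 FPKM in M1 and 33.6, 16.4 and 58.9 FPKM in M2, and Irf7, the factor that amplifies type I interferon, at 720, 584 and 756 FPKM in M1 and 262, 144 and 374 FPKM in M2. Iigp1, an interferon-inducible GTPase outside this list, also varied in M2. It was at 345, 364 and 350 FPKM in M1 but at 5.59, 1.89 and 10.5 FPKM in M2, so its difference of 5.88 has an SE of 0.43. The part that the shared name plays was not tested.

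**Figure D3:**
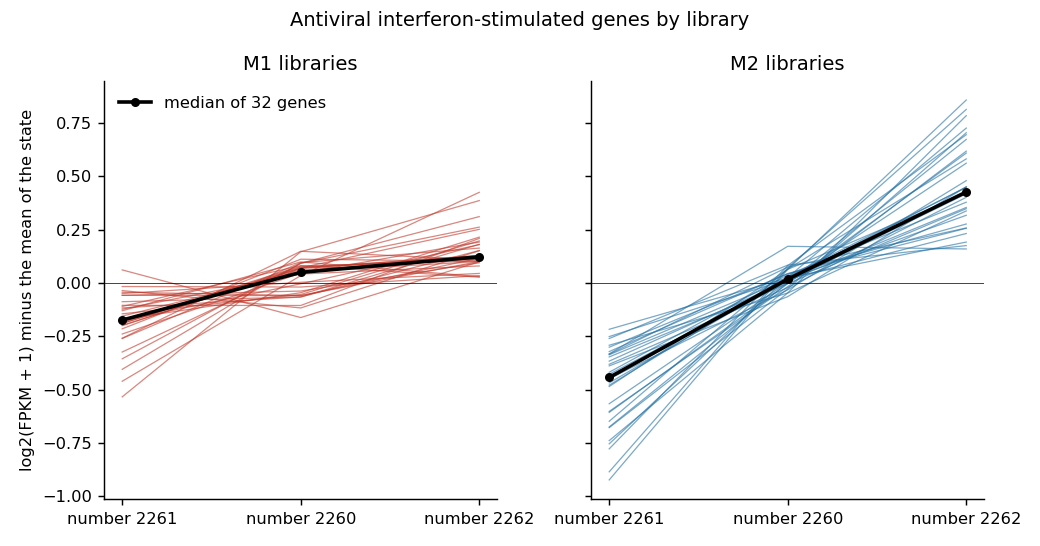
Lines follow 32 antiviral genes over the 3 M1 libraries (left) and the 3 M2 libraries (right), in the order Wt2261, Wt2260, Wt2262 of the number in the title, as log2(FPKM + 1) minus the gene's mean in that state; black points are the median gene. The median gene is lowest in Wt2261 and highest in Wt2262 in both panels, and the lines spread more widely in M2.

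Genes known as markers and effectors of alternative activation were lower in M1 for 18 of 22 tested and higher for 3, with a median of -3.21. The list was drawn up from markers known for this comparison, so its direction is not independent evidence. Retnla, which encodes RELM alpha, had the value 0 in each M1 library, and 86.7, 38.4 and 65.7 FPKM in M2. Chil3, a chitinase-like protein, was at 0.703, 0.859 and 0.630 FPKM in M1 and 32.7, 60.5 and 28.3 FPKM in M2 (-4.51 ± 0.25), and its near-identical relative Chil4 may share its reads. Igf1, insulin-like growth factor, was at 5.06, 4.19 and 4.87 FPKM in M1 and 277, 294 and 290.1 FPKM in M2 (-5.66 ± 0.07). The beta-glucan receptor Clec7a (dectin-1) was at 11.1, 15.3 and 8.23 FPKM in M1 and 516, 564 and 463 FPKM in M2 (-5.40 ± 0.19), and Itgax, which encodes CD11c, at 4.72, 5.30 and 4.11 FPKM in M1 and 249, 280 and 206 FPKM in M2 (-5.42 ± 0.12). The galactose lectins Mgl2 (-4.16) and Clec10a (-3.17) were lower too. The 3 members higher in M1 were Il10, the scavenger receptor Msr1 (1.12 ± 0.07) and the transglutaminase Tgm2 (1.05 ± 0.07). Stab1 was not called, with an interval of -0.30 to 0.04.

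Arginine is used by nitric oxide synthase in M1 cells and by arginase in M2 cells. The 2 enzymes were far from symmetrical here. Nos2 differed by 9.50 ± 0.11, the largest difference of all genes tested, while Arg1 was at 11.5, 15.9 and 8.30 FPKM in M1 and 42.6, 33.6 and 36.7 FPKM in M2 (-1.62 ± 0.20, adjusted p = 1.6e-04). Slc7a2, the transporter that brings arginine in, was at 270, 343 and 291 FPKM in M1 and 39.5, 41.5 and 38.3 FPKM in M2 (2.88 ± 0.09). Ass1, which rebuilds arginine from citrulline, and Gch1, which opens the synthesis of the cofactor tetrahydrobiopterin, were higher by 1.08 ± 0.08 and 1.34 ± 0.06, while the later cofactor enzymes Spr, Pts and Qdpr were lower (-0.99, -0.47 and -1.93). Of the polyamine genes, Sat1 (-2.54 ± 0.10), Srm (-1.49 ± 0.09), Sms (-1.43 ± 0.06) and Odc1 (-0.50 ± 0.08) were lower in M1, and the regulator Azin1 was not called (0.13, adjusted p = 0.11). Over the list 5 of 19 genes were higher in M1 (26.3%) and 12 lower (63.2%), with a median of -0.50. The shares over all genes tested were 26% and 51.4%. Amd1, among the 12, was at 3.21, 0.0103 and 6.16 FPKM in M2 and under 0.01 FPKM in M1, has a near-identical copy and is uncertain.

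The class I list and the class II and costimulation list differed in direction. Of 23 class I and peptide loading genes 17 were higher in M1 (73.9%) and none lower, with a median of 0.80. Of 20 class II and costimulation genes 13 were lower (65%) and 7 higher (35%), with a median of -0.77. The shares over all genes tested were 51.4% lower and 26% higher. The second list also holds genes outside class II, such as Pdcd1lg2 and Cd200r1, so its count is not of class II genes alone. Tap1, the peptide transporter, was at 286, 268 and 274 FPKM in M1 and 58.7, 42.1 and 71.7 FPKM in M2 (2.27 ± 0.17), and the class I activator Nlrc5 was higher by 2.27 ± 0.15. The abundant class I heavy chains moved less, with H2-K1 higher by 0.45 ± 0.13 and intervals that include 0 for H2-D1 (-0.02 to 0.44) and B2m (-0.04 to 0.53). Members of the H2-Q group have near-identical copies, and H2-Q6 was at 0.215, 30.5 and 0.0300 FPKM in M2, so they are uncertain. In class II, Cd74, the invariant chain, was at 1668, 1622 and 1340 FPKM in M1 and 3691, 3118 and 3687 FPKM in M2 (-1.18 ± 0.12), H2-Aa was lower (-1.36 ± 0.12), and so was the class II activator Ciita (-0.77 ± 0.14). March1, a ubiquitin ligase that removes class II from the surface, was higher in M1 (1.68 ± 0.06). Of the costimulatory genes, Cd40 was higher in M1, at 163, 143 and 156 FPKM in M1 and 10.4, 8.64 and 11.9 FPKM in M2 (3.79 ± 0.11), Cd86 by 1.90 ± 0.15 and Cd80 by 0.68 ± 0.07, while Cd83 was lower (-0.76).

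Enzymes of glycolysis and lactate handling were higher in M1 for 22 of 29 genes and lower for 4, with a median of 1.34. Pfkfb3, which makes the activator of phosphofructokinase, was at 156, 146 and 169 FPKM in M1 and 8.74, 7.77 and 8.94 FPKM in M2 (4.06 ± 0.07, adjusted p = 9.9e-09), and Slc16a3, the exporter of lactate, at 265, 270.5 and 239.5 FPKM in M1 and 15.9, 13.9 and 14.4 FPKM in M2 (4.04 ± 0.07). The glucose transporter Slc2a1 was higher by 2.49 ± 0.06, Tpi1 by 2.46 ± 0.07 and Gapdh, often used as a reference gene, by 1.81 ± 0.08, at 799, 778 and 684 FPKM in M1 and 211, 226 and 207 FPKM in M2. Ldha was far above Ldhb in both states, with means of 1041 and 1.26 FPKM in M1 and 318 and 11.1 FPKM in M2. Ldha was higher in M1 by 1.71 ± 0.08, and Ldhb was lower (-2.41 ± 0.11), at 1.49, 1.13 and 1.17 FPKM in M1 and 10.5, 13.1 and 9.70 FPKM in M2. Pfkfb4, Pdha1 and Pfkfb2 were the other lower members.

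The enzymes of the TCA cycle and the respiratory chain were lower in M1 by small amounts. Of 31 TCA and related genes 25 were lower and 4 higher with a median of -0.45, and of 38 respiratory chain and ATP synthase genes 36 were lower and 1 higher with a median of -0.49. The median over all genes tested was -0.19, and 51.4% of them were lower. With median-of-ratios scaling 19 TCA genes and 24 respiratory chain genes were lower, with medians of -0.24 and -0.27, and Got2 (0.18), Mdh2 (0.19), Sucla2 (0.0527), Uqcrc2 (0.0174) and Ndufs3 (0.0098) turned positive. The largest falls were of isocitrate dehydrogenases, a step at which the cycle is known to be interrupted in mouse M1 cells. Idh1, the cytosolic enzyme, was at 17.1, 16.5 and 14.8 FPKM in M1 and 94.5, 87.0 and 95.1 FPKM in M2 (-2.44 ± 0.07), and mitochondrial Idh2 at 11.8, 11.4 and 10.7 FPKM in M1 and 37.7, 39.6 and 36.0 FPKM in M2 (-1.66 ± 0.06). Irg1, the enzyme that makes itaconate from a cycle intermediate, went the other way, at 1770, 1626 and 1646 FPKM in M1 and 114, 131 and 105 FPKM in M2 (3.84 ± 0.09). Sdha, of succinate dehydrogenase, was lower (-0.95 ± 0.05), and the uncoupling protein Ucp2 had the largest difference of the respiratory list (-1.77 ± 0.07).

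Genes of fatty acid uptake and oxidation were lower in M1 for 25 of 33 tested (75.8%) and higher for 7 (21.2%), with a median of -0.78. The shares over all genes tested were 51.4% and 26%. Lpl, lipoprotein lipase, was at 39.3, 33.6 and 44.3 FPKM in M1 and 1062, 1150 and 1030 FPKM in M2 (-4.76 ± 0.10). Fabp4, a fatty acid binding protein, was at 6.59, 6.08 and 6.14 FPKM in M1 and 118, 158 and 126 FPKM in M2 (-4.21 ± 0.10), and Cd36, a fatty acid transporter and scavenger receptor, was lower as well (-2.40). Beta-oxidation enzymes were lower by less, with Acaa2 at -1.99, Hadh at -1.56 and Acadm at -1.28. Cpt1a, which admits fatty acids to the mitochondrion, was slightly higher (0.16 ± 0.06). Of the genes of fatty acid activation and triglyceride storage, Acsl1 was higher in M1, at 429, 484 and 360 FPKM in M1 and 27.0, 28.0 and 26.7 FPKM in M2 (3.90 ± 0.10), and so were Hilpda, an inhibitor of lipolysis, by 3.13 ± 0.17 and Dgat2 by 1.48 ± 0.07. Acsl3 (-0.97) and the lipid droplet coat gene Plin2 (-0.78) were lower, and Dgat1 was not called (0.11, adjusted p = 0.095).

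Cholesterol synthesis and uptake genes were lower in M1 almost throughout. Of 29 genes 25 were lower and 2 higher, with a median of -1.03. Cyp51 was at 2.43, 2.85 and 2.36 FPKM in M1 and 18.3, 20.2 and 15.3 FPKM in M2 (-2.41 ± 0.10), and Dhcr7 (-2.38) and Idi1 (-2.30) followed. The regulator Srebf2 was lower (-1.03 ± 0.06), and the interval for Srebf1 was -0.11 to 0.16. Higher in M1 were Ch25h, whose product 25-hydroxycholesterol is known to hold back this pathway, at 22.7, 14.6 and 29.6 FPKM in M1 and 0.723, 0.732 and 0.685 FPKM in M2 (3.71 ± 0.21), and the exporter Abca1 (0.84 ± 0.09). The related exporter Abcg1 was lower (-0.89 ± 0.19).

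Lysosomal genes were lower in M1 almost throughout, with 32 of 34 lower and a median of -1.17, and their summed level was 12810 to 14120 FPKM in M1 and 29910 to 32350 FPKM in M2. Atp6v0d2, a subunit of the proton pump, was at 0.722, 1.51 and 0.457 FPKM in M1 and 199, 251 and 189 FPKM in M2 (-6.85 ± 0.20), while its relative Atp6v0d1 differed by less (-0.35). Psap, the precursor of saposins, was at 1825, 2078 and 1585 FPKM in M1 and 6448, 7000 and 6474 FPKM in M2 (-1.87 ± 0.12). Lipa (-2.87), Cd63 (-2.18) and Hexa (-2.03), enzymes of lipid breakdown and a membrane protein of the organelle, were lower. The members higher in M1 were Ctsc, which activates granule proteases, at 658, 574 and 662 FPKM in M1 and 97.1, 85.2 and 105 FPKM in M2 (2.71 ± 0.10), and Ctsh (1.04 ± 0.08).

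Receptors for uptake were mixed, with 10 of 32 higher in M1 and 18 lower and a median of -0.27. These shares, 31.2% and 56.2%, are near the 26% and 51.4% of all genes tested. Marco, a scavenger receptor for bacteria, was at 1799, 1792 and 1539 FPKM in M1 and 67.7, 60.0 and 67.9 FPKM in M2 (4.69 ± 0.09), and Clec4e (mincle), the receptor for mycobacterial cord factor, was higher by 4.44 ± 0.19. Trem2, a lipid receptor, was at 46.8, 49.2 and 37.9 FPKM in M1 and 804, 834 and 860 FPKM in M2 (-4.20 ± 0.10). The apparatus that clears apoptotic cells did not move as one, since the bridging proteins Gas6 (-3.68 ± 0.09) and Pros1 (-2.62 ± 0.08) and the receptor Axl (-1.88 ± 0.10) were lower in M1 while the receptor Mertk was higher, at 75.4, 85.8 and 81.0 FPKM in M1 and 22.3, 22.2 and 21.97 FPKM in M2 (1.82 ± 0.06). Among complement genes, Cfb of the alternative pathway (5.18 ± 0.19) and C1ra, a protease of the classical pathway (1.501 ± 0.090), were higher, and the classical recognition subunits C1qa (-1.92 ± 0.18), C1qc and C1qb were lower. Of 12 complement genes 3 were higher (25%) and 5 lower (41.7%), with a median of -0.27. The shares over all genes tested were 26% and 51.4%.

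Among sensors of microbes inside the cell and pyroptosis genes, 17 of 27 were higher in M1 and 8 lower, with a median of 0.62. Nlrp3, the inflammasome sensor, was at 63.9, 78.3 and 66.0 FPKM in M1 and 7.45, 6.57 and 7.25 FPKM in M2 (3.12 ± 0.09). Nod1 (3.28 ± 0.12), Nod2 (2.60 ± 0.07), Casp4 (2.15 ± 0.12) and Casp1 (1.63 ± 0.07) were higher too. The endosomal receptors Tlr8 (-1.60 ± 0.11) and Tlr13 (-1.25 ± 0.06) and the adaptor Pycard (-1.14 ± 0.09) were lower. A list of NF-kB feedback genes and ubiquitin editors also holds wider feedback and signalling genes, such as Socs3, Gpr84 and Dusp16. Of its 34 genes 28 were higher in M1 (82.4%) and 1 lower (2.94%), Tollip, with a median of 1.37. The shares over all genes tested were 26% and 51.4%. Nfkbiz was at 49.9, 56.1 and 59.0 FPKM in M1 and 3.08, 3.10 and 3.68 FPKM in M2 (3.71 ± 0.08), Nfkbia was higher by 2.46 ± 0.07 and Tnfaip3, which encodes A20, by 1.59 ± 0.06. Zfp36, which encodes tristetraprolin, was not called, at 174, 148 and 188 FPKM in M1 and 167, 141 and 172 FPKM in M2.

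Lipid mediator enzymes were exchanged within a family. Ptgs2, the inducible cyclooxygenase, was at 507, 589 and 514 FPKM in M1 and 2.18, 1.80 and 2.03 FPKM in M2 (7.48 ± 0.08, adjusted p = 2.0e-09). Ptgs1, the constitutive enzyme, was at 0.0694, 0.0857 and 0.0687 FPKM in M1 and 61.2, 50.8 and 60.2 FPKM in M2 (-5.76 ± 0.07, adjusted p = 3.3e-09). Downstream, the prostaglandin E synthase Ptges was higher in M1 (5.88 ± 0.10), and the thromboxane synthase Tbxas1 (-2.46 ± 0.10) and the leukotriene C4 synthase Ltc4s (-3.38 ± 0.11) were lower. Over the list 4 of 16 genes were higher (25%) and 10 lower (62.5%), with a median of -0.53. The shares over all genes tested were 26% and 51.4%.

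Iron and haem genes were higher in M1 for 10 of 18 tested (55.6%) and lower for 5 (27.8%), with a median of 0.40. The shares over all genes tested were 26% and 51.4%. Hmox1, which breaks down haem, was at 1846, 2044 and 1628 FPKM in M1 and 263, 246 and 282 FPKM in M2 (2.80 ± 0.10). Tfrc, the transferrin receptor, was at 11.8, 15.1 and 12.7 FPKM in M1 and 114, 150 and 97.9 FPKM in M2 (-3.08 ± 0.16), and the iron exporter Slc40a1 was lower as well (-0.79 ± 0.10). Of 27 genes that make or remove oxidants 14 were higher (51.9%) and 11 lower (40.7%), with a median of 0.41. Prdx5, a peroxidase, was at 3635, 3114 and 2941 FPKM in M1 and 263, 263 and 261 FPKM in M2 (3.61 ± 0.09). The oxidase subunits divided, with Cybb (1.37 ± 0.08) and Ncf1 (1.39 ± 0.08) higher in M1 and Cyba (-0.53 ± 0.09) and Ncf4 (-0.32 ± 0.05) lower.

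Matrix enzymes and growth factors differed gene by gene. Of 22 matrix genes 11 were higher in M1 and 8 lower, with a median of 0.29, and the collagenase gene Mmp13 was at 416, 406 and 445 FPKM in M1 and 7.60, 8.28 and 6.20 FPKM in M2 (5.67 ± 0.09), while the elastase gene Mmp12 was at 8.50, 9.38 and 6.61 FPKM in M1 and 285, 417 and 206 FPKM in M2 (-5.00 ± 0.24). Spp1, osteopontin, was at 57.9, 70.8 and 52.8 FPKM in M1 and 1147, 1468 and 1261 FPKM in M2 (-4.40 ± 0.13). Of 16 growth factor and repair genes 11 were lower in M1 (68.8%) and 3 higher (18.8%), with a median of -1.31. The shares over all genes tested were 51.4% and 26%. Beside Igf1, Pdgfa (-3.54 ± 0.07) and Vegfb (-1.80 ± 0.14) were lower, and Vegfa, the angiogenic factor induced by hypoxia, was higher, at 69.1, 71.6 and 59.5 FPKM in M1 and 9.45, 8.97 and 9.94 FPKM in M2 (2.69 ± 0.08).

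Most genes of growth tested were lower in M1. All 42 ribosomal protein genes tested were lower, with a median of -1.12. They took 2.58 to 2.88% of the summed FPKM in M1 and 5.76 to 6.13% in M2, in sums without Fth1. Rps18, at 401, 366 and 334 FPKM in M1 and 1120, 1170 and 1180 FPKM in M2 (-1.66 ± 0.08), had the largest difference. All 42 were also lower with median-of-ratios scaling and with quantile normalization, with medians of -0.90 and -0.95. Ribosomal protein genes have many processed copies, which may share reads. Of 30 replication and mitosis genes 21 were lower in M1 (70%) and 6 higher (20%), with a median of -1.23. The shares over all genes tested were 51.4% and 26%. The summed level of this list went the other way, at 865 to 985 FPKM in M1 and 758 to 790 FPKM in M2. The helicase genes Mcm2 to Mcm7 were lower, with differences from -2.33 to -1.23, and Cdkn1a, the inhibitor of cyclin-dependent kinases p21, was higher, at 573, 498 and 529 FPKM in M1 and 138, 116 and 174 FPKM in M2 (1.92 ± 0.14). Proliferation genes themselves were near the floor of the test, with Mki67 at 0.539, 0.758 and 0.645 FPKM in M1 and 1.71, 1.78 and 1.07 FPKM in M2. The D-type cyclins changed over, with Ccnd2 higher in M1 (3.77 ± 0.16) and Ccnd1 lower (-3.51 ± 0.13). Of 26 genes of endoplasmic reticulum stress 11 were higher in M1, 4 lower and 11 not called, with a median of 0.06, and the largest differences were of Hspa1a (2.47 ± 0.17) and Hspa1b, near-identical genes that cannot be separated here.

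**Figure D4:**
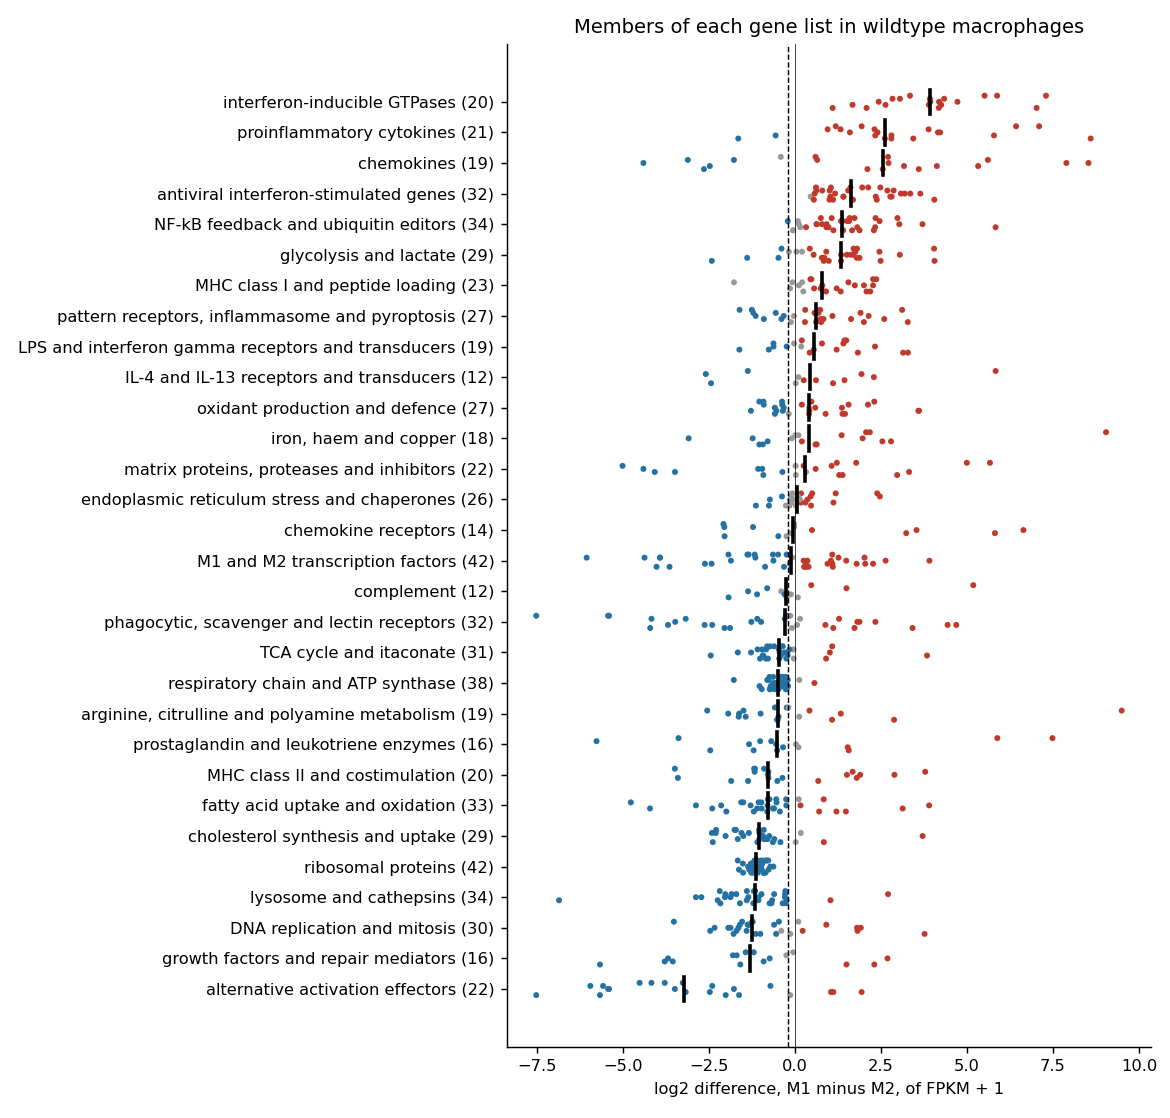
Each point is a tested gene of a list, placed by its log2 difference (M1 minus M2) of FPKM + 1, red where higher in M1, blue where lower and grey where not called; bars are list medians, the number tested follows each list's name, and the dashed line is the median of all genes at -0.19. Interferon-inducible GTPases lie at the top with a median of 3.93 and alternative activation effectors at the bottom with -3.21.

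Some members of 1 gene family went in opposite directions. Mean FPKM of Ptgs2 and Ptgs1 was 537 and 0.0746 in M1 and 2.00 and 57.4 in M2. Cd274, which encodes PD-L1, had means of 458 in M1 and 60.8 in M2, and Pdcd1lg2, which encodes PD-L2, 0.430 in M1 and 15.0 in M2. Both encode ligands of PD-1, with differences of 2.89 ± 0.06 and -3.48 ± 0.07. Irf1 and Irf4, Socs3 and Socs2, Ldha and Ldhb, Timp1 (1.29 ± 0.10) and Timp2 (-4.07 ± 0.10), Klf6 (1.09 ± 0.06) and Klf2 (-1.86 ± 0.18), Arg2 (0.43 ± 0.11) and Arg1, and Fcgr1 (2.34 ± 0.32) and Fcgr2b (-0.29 ± 0.11) likewise had opposite signs, both called on the deposited scale. Of the superoxide dismutases, mitochondrial Sod2 was higher in M1 (3.59 ± 0.07) and the interval for cytosolic Sod1 was -0.39 to 0.03. Other pairs moved together. Hk1 and Hk2 were higher in M1 by 1.80 ± 0.05 and 1.63 ± 0.05, as were the formyl peptide receptor genes, and Fos and Fosl2 were lower in M1 (-1.38 ± 0.07 and -0.86 ± 0.10). The pairs were picked for contrast with results known, so the number of pairs that split is not a rate.

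**Figure D5:**
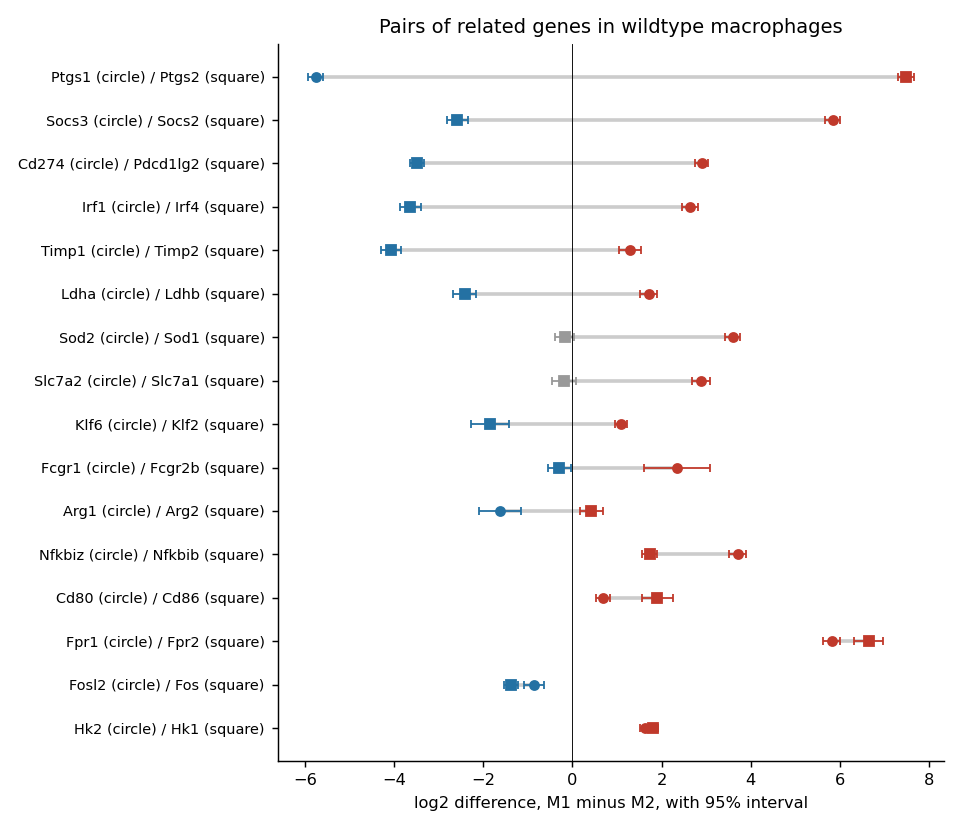
Log2 differences (M1 minus M2) with 95% intervals for 16 pairs of related genes, the first-named as a circle and the second as a square, red where higher in M1, blue where lower and grey where not called, ordered by the gap between members. Ptgs1 and Ptgs2 stand furthest apart, at -5.76 and 7.48, and Hk2 and Hk1 nearest.

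Macrophage markers were present in both states. Csf1r was at 479, 465 and 470.5 FPKM in M1 and 792, 741 and 813 FPKM in M2 (-0.73 ± 0.06), and Emr1, which encodes F4/80, at 1227, 1342 and 1263 FPKM in M1 and 673, 650 and 783 FPKM in M2 (0.87 ± 0.09). Of 11 macrophage markers tested 6 were higher in M1 and 3 lower, and Cd163 reached at most 0.142 FPKM. The neutrophil list summed to 1430 to 1473 FPKM in M1 and 6.56 to 15.2 FPKM in M2, and 3 of its 11 genes in the table were tested, all higher in M1: Lcn2, S100a8 and Mmp8. Among other genes of this list, Elane was at 0 in every library. Mpo, Ngp, Ltf, Cxcr2 and S100a9 reached at most 1.45 FPKM, and Camp was at 1.48 to 1.55 FPKM in M1. Summed B cell markers reached 13.4 FPKM, nearly all of it Cd22, with Cd79a, Ms4a1, Pax5 and Blk at or near 0. Dendritic cell markers reached 45.0 FPKM, led by Batf3 and Ccr7, with Flt3, Xcr1 and Clec9a under 1 FPKM. Markers of T and NK cells, mast cells, red cells and fibroblasts summed to at most 1.25 FPKM in any library, and those of endothelium to at most 14.8 FPKM.

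Some genes were listed at 0 in all libraries of 1 state. Beside Retnla, Ccl17 and Fth1, these were Cldn11, D5Ertd605e and Ffar4 in M1. In M2 they were Csf3, Il1f6, Saa1, Sprr2d, Ubd and Wfdc21. Csf3, which encodes G-CSF, was at 4.67, 10.1 and 4.47 FPKM in M1, and Ubd, a ubiquitin-like modifier, at 2.79, 4.66 and 2.69 FPKM. An exact 0 in such a table can be a failed estimate, so no fold is given for them. Apart from Fth1 they stayed in the tests, and Retnla and Ccl17 therefore count in the ranks, calls and list medians above.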

How the data were processed

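Polyadenylation or ribosomal RNA selection and the strand setting are not given in the sources used here. Libraries were made with NEBNext Ultra II after miRNeasy extraction. Per the submitters' processing notes the authors aligned reads with STAR 2.5.1 to mm9 and used Cufflinks and DESeq, and the deposited values are FPKM. Groups came from the titles. Columns of the authors' own fold changes and adjusted p-values were not used. Genes whose mean across the 6 libraries reached 1 FPKM were tested on log2(FPKM + 1), which understates the change of low genes, with limma 3.58.1 in R 4.3.3, moderated variances with an intensity trend, two-sided tests and Benjamini-Hochberg adjustment over the 10132 genes at 0.05. Fold changes are log2 differences, M1 minus M2, with their standard errors (SE), 3 libraries a group. Intervals are 95%.

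The comparison, the 39 gene lists, the pairs and the promoters shown were chosen with earlier results of these data known, so lists are described by counts and medians without a test. Named were the 15 largest differences in each direction without overlap, the 8 largest and 3 smallest members of each list, the pairs, the 8 most abundant genes of each state and genes listed at 0 in 1 state and above 50 FPKM in each library of the other, and further members of the lists and other genes listed at 0 were added after their values were seen. On simulated data with 10132 genes, 100 were shifted by 1 and 100 by 0.5. Of these 95% and 76% were called, and 5.5% of calls were of unshifted genes. Low genes were not shifted, most genes had no shift, and the noise was normal and independent. The figures are therefore not error rates of this comparison. Alternatives changed the pseudocount, the filter, the scaling, the libraries, the variance trend, the block and the label used for grouping. Promoters were RefSeq windows of GRCm38.p6. Some members of the lists are not reported here, and they stay in the counts.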

Additional observations from a re-analysis of the deposited data

How the results depend on the processing

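Of the 10132 genes, 7847 were called, 2133 of them by at least 1 on the log2 scale. Leaving out each library in turn gave 7373 to 7680 calls and 2090 to 2156 by at least 1. A pseudocount of 0.1 gave 7846 and 2545, a fit of all 12 libraries 7962, no variance trend 7846, and no filter 9635 of 16387 genes. Grouping by the treatment field gave 0 calls and 0 by at least 1, with 55 at an unadjusted p under 0.05. Of 362 named genes, 306 that were called in the main fit had the opposite sign there. Genes called in neither fit were left out of that count. Median-of-ratios scaling gave 7651 calls and quantile normalization 7718, of which 6463 and 6649 were calls of the deposited scale in the same direction. Under median-of-ratios scaling the differences turned positive for Jak1 (0.19), Cmklr1 (0.19), Got2 (0.18), Mdh2 (0.19), Sucla2 (0.0527), Uqcrc2 (0.0174), Ndufs3 (0.0098), Tnfaip8 (0.16) and Spi1 (0.21), and under quantile normalization for Calr (0.18) and Itgb2 (0.21). With the title number as a replicate block 7736 genes were called, 7639 of them shared in direction. The deviations of M1 and M2 libraries with the same number correlated at -0.06 (Wt2260), 0.21 (Wt2261) and 0.10 (Wt2262). Those of libraries with different numbers correlated at -0.20 to 0.10. The labels do not say what the numbers stand for, and the main fit did not pair by them. Without read counts the precision of low values is unknown.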
